A study of Rattus norvegicus with 5 samples.

Results

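This section describes 10 receptor genes for 4 families of neuropeptides in cultured sensory ganglia of the rat: Npy1r, Npy2r and Npy5r for neuropeptide Y (NPY), Galr1 and Galr2 for galanin, Sstr1, Sstr2 and Sstr4 for somatostatin, and Cckar and Cckbr for cholecystokinin (CCK). They were taken by symbol from a table of 33014 genes, and all 10 were found in it. The samples were 5 RNA-seq libraries of wild-type Sprague Dawley cells, dissociated from the dorsal root ganglia (DRG) of pups at postnatal day 10, a litter of 10 animals. Cells were plated at 5000 per well, given 1X PBS at day 1 and lysed at day 8, with 3 wells per library. All 5 libraries form 1 group, so no condition is compared with another, and nothing in the labels says that they came from separate preparations. A p-value here thus sets a mean against the scatter of these libraries only, and that scatter may be technical.

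DRG hold the cell bodies of the sensory neurons that carry touch, temperature, itch and pain to the spinal cord, together with glia and other cells. The peptides NPY, galanin, somatostatin and CCK are made by sensory or spinal neurons and act on receptors of the G protein-coupled family. NPY receptors, Galr1 and the somatostatin receptors couple mainly to Gi and Go proteins, which lower cyclic AMP, open GIRK potassium channels and inhibit presynaptic calcium channels. Galr2 and both CCK receptors couple mainly to Gq, which activates phospholipase C. In rat DRG, cutting the peripheral nerve is known to raise the expression of galanin, NPY and Cckbr, and dissociation for culture also severs the axons.

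Libraries held 21596608 to 27913098 estimated reads, so that 1 TPM (the TPM unit scales reads by transcript length and sums to 1000000 per library) on 1 kb of effective length stood for 13.3 to 17.4 reads. All 8 neuronal marker genes were above 1 TPM in every library, with a summed level of 6616 to 7018 TPM. Schwann cell markers (6 of 6, summed 5699 to 6732 TPM), fibroblast markers (6 of 6, 1695 to 1739 TPM) and macrophage markers (6 of 6, 853 to 1340 TPM) were present as well. Of 4 lymphocyte markers, Cd3d, Cd3e and Nkg7 were at 0 reads. RNA of every cell type was sequenced together, so a receptor cannot be assigned to a cell type, and fewer cells of a type and less RNA per cell cannot be told apart.

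Receptor expression was concentrated in Galr2 and Npy2r, at an intermediate level in Cckbr and Npy1r, and low in the other members. Galr2 stood at 17.9 ± 1.49 TPM (SD, n = 5) and Npy2r at 16.7 ± 1.46 TPM, and both together held 78.6% ± 1.24 of the summed TPM of the 10 genes. Cckbr was at 4.33 ± 0.702 and Npy1r at 3.03 ± 0.298 TPM. The other 6 genes lay between 0.0953 ± 0.0364 TPM (Npy5r) and 0.585 ± 0.148 TPM (Cckar). The summed level of all 10 was 45.97, 46.02, 43.5, 42.8 and 41.8 TPM in replicates 1 to 5.

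A gene was called detected where every library reached 1 TPM, and 4 of the 10 members were: Galr2, Npy2r, Cckbr and Npy1r. Of all genes measured, 41.3% were detected, so the share among the members was near that of any gene. No library of the other 6 members reached 1 TPM. Each gene's level was then tested against 1 TPM with limma over all 24485 genes that were not at 0 throughout, on the scale of log2(TPM + 0.1). The test called 4 members above 1 TPM (56.0% of all genes tested were called above) and 6 members below it (39.6% of all genes tested were called below). The median member stood at 0.510 TPM, against 3.05 TPM for all genes tested and 0.297 TPM for all 33014 genes of the table, those at 0 included. By coupling, 2 of 7 members that act mainly through Gi or Go were detected, against 2 of 3 that act mainly through Gq.

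**Figure D1:**
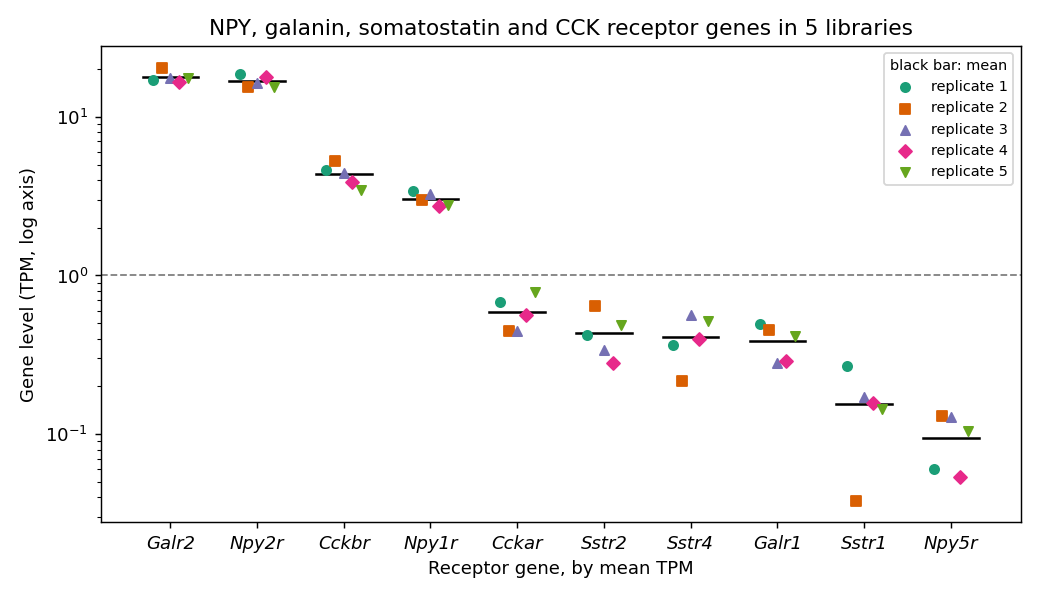
Level of each receptor gene in TPM on a log axis, with 1 symbol per library, a black bar at the mean and a dashed line at 1 TPM. Galr2, Npy2r, Cckbr and Npy1r sit above the line in all 5 libraries, and the other 6 genes sit below it in all 5.

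Among the NPY receptors, Npy2r was the most abundant, Npy1r followed, and Npy5r was close to absent. Npy2r, often a presynaptic receptor that limits transmitter release, measured 18.7, 15.4, 16.2, 17.8 and 15.5 TPM in replicates 1 to 5. Npy1r, a receptor of neuronal cell bodies and spinal neurons, measured 3.42, 2.97, 3.25, 2.74 and 2.78 TPM. Npy5r, better known from feeding circuits of the hypothalamus, had 2 to 4 reads per library. The ranges of the 3 genes did not overlap, and in TPM replicate 1 was the highest library for both Npy2r and Npy1r. As a share of all reads, with no division by length, replicate 1 remained the highest library for Npy2r. For Npy1r that share counts named transcripts only, which leaves out 0.632 TPM in replicate 1, so its libraries were not ranked on that scale.

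Npy2r held 84.2% ± 1.402 of the summed TPM of the 3 NPY receptor genes, Npy1r 15.3% ± 1.24 and Npy5r 0.491% ± 0.211. Npy2r exceeded Npy1r by 2.43 ± 0.14 on the log2(TPM + 0.1) scale (5.37-fold) in 5 of 5 libraries. It exceeded Npy5r by 6.44 ± 0.39 on that scale, also in 5 of 5 libraries. Npy1r exceeded Npy5r by 4.02 ± 0.30 (16.2-fold) in 5 of 5 libraries. The 15 reads of Npy5r over the 5 libraries set its mean at 0.0953 TPM with an exact 95% Poisson interval of 0.0533 to 0.157 TPM, which covers counting error only. Differences that involve Npy5r shrink with the pseudocount: at a pseudocount of 1, Npy2r was 4.01 and Npy1r 1.88 above it. An exact sign-flip test over 5 libraries cannot give less than p = 0.063, so none of the within-family pairs below or above can pass 0.05, and that smallest value was reached by all 3 NPY pairs.

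Npy1r and Npy5r are neighbours in the genome, with no gene between them in the RefSeq table of GRCr8, and they are read in opposite directions away from each other. Their promoter sequences are shown because adjacent genes with opposed start sites differed in level by this much. The sequences are the 250 bases before 1 start per gene in RefSeq's GRCr8 table, 5′ to 3′ on the strand of the gene. Capitals mark each CG dinucleotide. Both genes have more than 1 named transcript, and other possible starts were not examined. The Npy1r window is chr16:27813388-27813637 on the minus strand, and the Npy5r window is chr16:27821805-27822054 on the plus strand.
Npy1r: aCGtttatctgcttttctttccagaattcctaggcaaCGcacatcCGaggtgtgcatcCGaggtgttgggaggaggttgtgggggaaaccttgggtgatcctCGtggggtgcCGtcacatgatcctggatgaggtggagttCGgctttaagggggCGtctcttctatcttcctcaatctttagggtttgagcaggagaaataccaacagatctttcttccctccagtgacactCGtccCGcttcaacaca
Npy5r: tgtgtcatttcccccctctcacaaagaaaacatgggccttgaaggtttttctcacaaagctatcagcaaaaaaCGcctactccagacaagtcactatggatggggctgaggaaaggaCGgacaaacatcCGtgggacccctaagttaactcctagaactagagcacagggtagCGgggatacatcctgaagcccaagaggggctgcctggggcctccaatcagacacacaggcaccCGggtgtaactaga
The Npy1r window holds 10 CG dinucleotides and the Npy5r window 5, against a median of 5 over 33469 promoters of the same length. G and C made up 51.6% of the first window and 52.0% of the second, and the median over all promoters was 51.2%. The letters TGACG, the core of a cyclic AMP response element, were searched on both strands and occur 1 time in the Npy1r window and not in the Npy5r window. Of all promoters, 18.2% hold these letters. So do 3 of the 9 members with a promoter entry, Sstr1 and Sstr2 among them, which were not detected. A link between these letters and level was not tested.

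For galanin, nearly all receptor mRNA was Galr2, the Gq-coupled member. Galr2 measured 16.96, 20.4, 17.6, 16.7 and 17.7 TPM in replicates 1 to 5, with replicate 2 above the other libraries. Galr1, the Gi-coupled member, measured 0.492, 0.456, 0.279, 0.291 and 0.416 TPM, from 8 to 15 reads per library. The groups of values were far apart, and Galr2 held 97.9% ± 0.5004 of the summed level of both genes. The difference was 5.23 ± 0.27 on the log2(TPM + 0.1) scale (37.4-fold) in 5 of 5 libraries (exact sign-flip p = 0.063, the smallest possible). At a pseudocount of 1 it was 3.77. Galr3, the remaining galanin receptor gene, was at 0.121 ± 0.0632 TPM, and its level is uncertain because it overlaps Ankrd54 (12.6 ± 1.06 TPM) in the RefSeq table.

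Cckbr, the CCK receptor also known from brain and stomach, was the main CCK receptor gene. It measured 4.59, 5.29, 4.45, 3.86 and 3.46 TPM in replicates 1 to 5. Cckar, the receptor of pancreas and gallbladder, measured 0.683, 0.450, 0.447, 0.560 and 0.785 TPM. The ranges did not overlap, and replicate 5 was at once the lowest library for Cckbr and the highest for Cckar. Cckbr exceeded Cckar by 2.71 ± 0.50 on the log2(TPM + 0.1) scale (6.52-fold) in 5 of 5 libraries (exact sign-flip p = 0.063, the smallest possible), and held 87.8% ± 4.14 of their summed level. Cckar was the member nearest to the line from below, at -0.71 ± 0.12 (SE) against 1 TPM on the log2 scale (limma adjusted p = 0.00220). The level of Cckbr is uncertain because it overlaps a non-coding gene, LOC108349007, at 1.17 ± 0.689 TPM, and the strand setting is not known.

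Somatostatin receptor genes were low throughout, and no single member led. Sstr2, the receptor that most somatostatin drugs act on, measured 0.424, 0.643, 0.338, 0.282 and 0.489 TPM in replicates 1 to 5. Sstr4, studied as a target for pain relief, measured 0.365, 0.217, 0.562, 0.396 and 0.515 TPM. Sstr1 measured 0.267, 0.0382, 0.171, 0.158 and 0.144 TPM. The values of Sstr2 and Sstr4 overlapped, and replicate 2 was the highest library for Sstr2 and the lowest for both Sstr4 and Sstr1.

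These somatostatin receptor values rest on 59 reads for Sstr2, 49 for Sstr4 and 43 for Sstr1 over all libraries. Sstr2 exceeded Sstr4 in 2 of 5 libraries, with a difference of 0.07 ± 0.71 (exact sign-flip p = 0.875). Without replicate 2 the difference was -0.22. Sstr2 exceeded Sstr1 by 1.09 ± 0.80 and Sstr4 exceeded Sstr1 by 1.02 ± 0.41 on the log2(TPM + 0.1) scale, each in 5 of 5 libraries. Both narrowed to 0.48 and 0.24 as reads per 1000000, where length is not divided out, with Sstr2 above Sstr1 in 2 and Sstr4 above Sstr1 in 4 of 5 libraries. In the RefSeq table Sstr2 overlaps the span of Slc39a11, a zinc transporter gene at 12.7 ± 1.16 TPM, so the level of Sstr2 is uncertain. Of the remaining somatostatin receptor genes, Sstr3 was at 0.520 ± 0.115 TPM and Sstr5 had 0 reads, which allows up to 0.0362 TPM (3 reads over the 5 libraries).

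**Figure D2:**
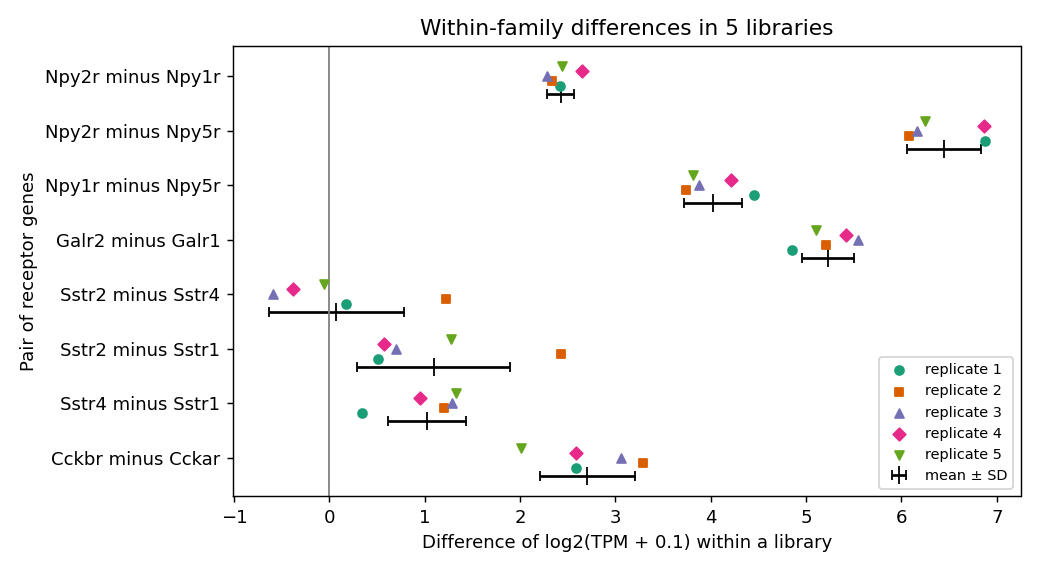
Difference of log2(TPM + 0.1) between receptor genes of the same peptide family, with 1 symbol per library and the mean ± SD below each set of symbols. Of 8 pairs, only Sstr2 minus Sstr4 has libraries on both sides of 0, and its mean is 0.07.

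In the order of mean levels, 5 of the 9 pairs of neighbours had overlapping ranges. Galr2 and Npy2r did not differ beyond their spread (0.10 ± 0.22 on the log2 scale, Galr2 higher in 3 of 5 libraries). Npy2r stood 1.93 ± 0.26 above Cckbr, Cckbr 0.49 ± 0.19 above Npy1r and Npy1r 2.21 ± 0.36 above Cckar, each in 5 of 5 libraries with separate ranges. As reads per 1000000 the difference between Cckbr and Npy1r narrowed to 0.13 ± 0.27, with Cckbr higher in 4 of 5 libraries and overlapping ranges. Those reads cover named transcripts only, which leaves out 0.632, 0.151 and 0.0822 TPM of Npy1r in replicates 1, 2 and 3. In replicate 3 Cckbr led by only 5.123 against 5.118 reads per 1000000, so the count of 4 libraries is uncertain. Cckar, Sstr2, Sstr4 and Galr1 formed a run of neighbours with overlapping ranges between 0.217 and 0.785 TPM. Galr1 exceeded Sstr1 by 0.97 ± 0.62 in 5 of 5 libraries in TPM. As reads per 1000000 the difference was 0.44 ± 0.81, with Galr1 higher in 2 libraries, equal in 2 and lower in 1. The ranges of Sstr1 and Npy5r overlapped.

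The spread between libraries was compared with the spread that counting alone would give. Npy2r had a coefficient of variation of 8.75%, against 3.97% from counting alone at its mean depth, and Galr2 had 8.34% against 4.65%. As reads per 1000000, which do not depend on the division among transcripts, these values were 6.16% for Npy2r and 5.84% for Galr2. Cckbr, with a single transcript, had 16.2% against 9.05%. For Npy1r the values were 9.83% and 9.51%, for Sstr2 32.3% and 29.1%, and for Galr1 25.04% and 29.6%. The counting value of Npy1r rests on its named transcripts only. Sstr1 varied by 52.4% against 34.1%, with 2 reads in replicate 2 and 15 in replicate 1. The summed level of the 8 neuronal markers varied by 2.35% over the same libraries.

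Transcript values showed where the gene levels depended on how reads were divided. The files held 17 transcripts of the 10 genes, and 5 members had a single one. For 9 members the named transcripts came within 10% of the gene level in every library. The exception was Npy1r, for which up to 18.5% of the level in a library belonged to no named transcript.

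Npy2r was divided between a transcript of 4264 bases at 8.85 ± 0.461 TPM and one of 1147 bases at 7.87 ± 1.27 TPM. The short one held 46.9% of the gene's TPM but 16.5% of its reads, because a short transcript needs fewer reads for the same TPM. If all reads were set on the longer transcript, an alternative chosen after seeing the data, Npy2r would stand at 10.6 TPM. Galr2 was divided over transcripts of 1422, 3175 and 1652 bases, at 8.07 ± 0.956, 5.31 ± 0.393 and 4.48 ± 1.05 TPM. With all its reads on the longest, Galr2 would stand at 10.7 TPM, again beside Npy2r. As reads per 1000000, with no division by length, Npy2r was at 26.1 ± 1.61 and Galr2 at 19.1 ± 1.12, with Npy2r higher in 5 of 5 libraries, so the order of the leading pair depends on the scale.

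For Npy1r the gene level was steady while its division among transcripts was not. The transcript of 2618 bases took 2.57, 1.44, 1.12, 0.828 and 0 TPM in replicates 1 to 5. The transcript of 2969 bases was listed at 0 in replicates 1, 2 and 3 and took 1.68 and 2.06 TPM in replicates 4 and 5. The transcript of 3056 bases took 0.219, 1.39, 2.05, 0.229 and 0.717 TPM. Over the same libraries the gene as a whole ranged from 2.74 to 3.42 TPM, so no Npy1r transcript led in all libraries.

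**Figure D3:**
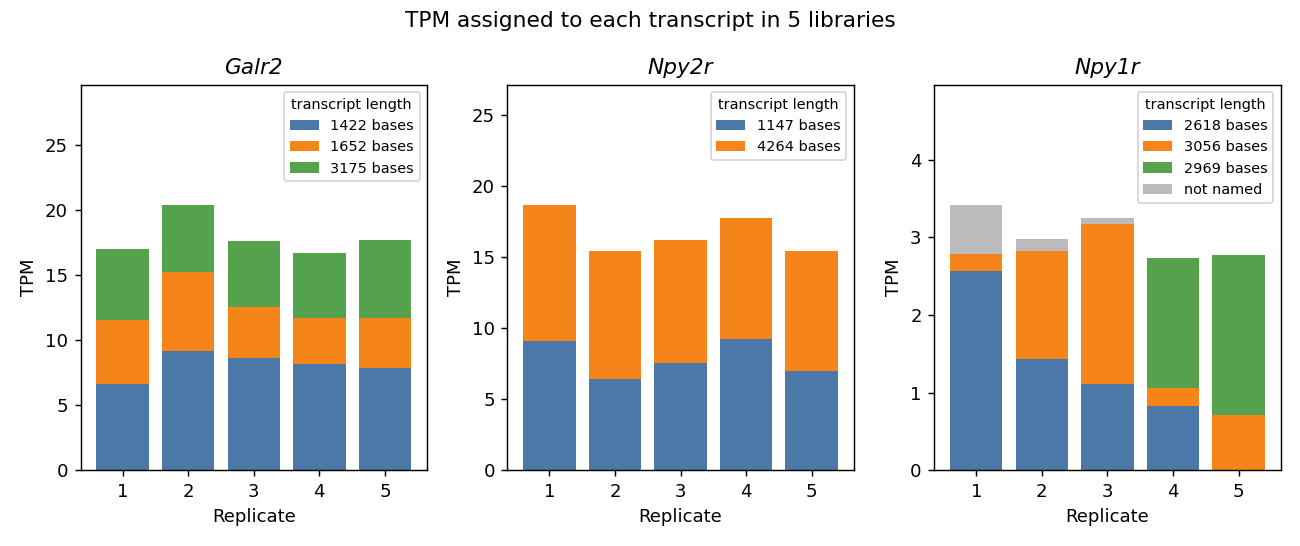
Stacked bars of the TPM assigned to each transcript of Galr2, Npy2r and Npy1r in replicates 1 to 5, coloured by transcript length in bases, with the gene level as the full height. The shares of Galr2 and Npy2r transcripts are alike across libraries, while the 2618-base transcript of Npy1r goes from 2.57 TPM in replicate 1 to 0 in replicate 5.

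Of the 10 genes for the peptides themselves, Gal, Npy and Cck stood well above the receptor genes of their families, and the ligand list as a whole did not, with a median of 0.326 TPM. Gal, the galanin precursor, measured 307, 339, 332, 334 and 337 TPM (mean 329.6 ± 12.7), the highest of 10 ligand genes. Npy was at 98.4 ± 7.78 TPM and Cck at 63.3 ± 6.77 TPM. Sst, the somatostatin precursor and a marker of an itch neuron class, was at 4.67 ± 1.38 TPM and ranged from 3.28 to 6.61 TPM. Of the 6 listed markers of that class, 3 were called above 1 TPM, Sst among them, and 3 below it. Gal, Npy, Cck and Sst were the ligand genes called above 1 TPM in the whole-table test, out of 8 tested. The other 4 were called below it. Of all genes tested, 56.0% were called above and 39.6% below.

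The remaining ligands were at the edge of detection. Cort (cortistatin, a somatostatin relative) had 6 reads, Galp (galanin-like peptide) 6, Gast (gastrin, a Cckbr ligand) 8 and Spx (spexin, a galanin receptor ligand) 3 reads over all libraries. Pyy and Ppy, gut relatives of NPY, had no reads at all, a count that leaves room for 0.149 and 0.166 TPM. Each of the 4 families thus had 1 ligand gene called above 1 TPM, and in the somatostatin family no receptor gene reached that level. Among the receptors of these families outside the 10 members, none of 3 tested was called above 1 TPM and all 3 were called below it. They were Sstr3, Galr3 and Npy4r, the last with 2 reads in all, both in replicate 2.

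Most of the listed genes that act downstream of these receptors were called above 1 TPM, as were 56.0% of all genes tested. All 5 Gi and Go alpha genes were called above 1 TPM, led by Gnai2 at 472 ± 7.55, Gnai3 at 137 ± 1.64 and the neuronal Gnao1 at 129.7 ± 2.71 TPM. All 8 Gq alpha and phospholipase C genes were called above it too, with Gnaq at 58.8 ± 1.504, Gna11 at 57.1 ± 2.37 and Plcb3 at 55.1 ± 1.86 TPM. Of 6 genes for GIRK and presynaptic calcium channels 4 were called above 1 TPM, among them Cacna1b (N-type calcium channel) at 27.7 ± 1.93 and Kcnj3 (GIRK1) at 12.3 ± 0.743 TPM. Kcnj6 (GIRK2) was called below, at 0.494 ± 0.0975 TPM, and Kcnj5 (GIRK4), at 0.859 ± 0.228 TPM, was not called either way.

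Adenylyl cyclases, the enzymes that Gi proteins inhibit, were called above 1 TPM for 9 of 9 genes, with Adcy6 highest at 33.8 ± 1.32 TPM. Receptor kinases, arrestins and RGS proteins, which end receptor signals, were called above it for 10 of 10, led by Arrb1 at 125 ± 2.48, Rgs4 at 93.3 ± 4.25 and Grk2 at 52.4 ± 2.25 TPM. Across these lists the typical gene lay above the typical receptor. The list medians were 129.7 TPM for Gi and Go genes, 23.8 TPM for the Gq list and 39.4 TPM for the regulators. They were 9.22 TPM for the GIRK and calcium channels and 6.65 TPM for the adenylyl cyclases, against 0.510 TPM for the 10 receptors.

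Injury-responsive genes were called above 1 TPM for 10 of 10 list members, as were 56.0% of all genes tested. Among them Gap43 (growth cone protein) stood at 1635 ± 7.78, Jun at 377 ± 19.7 and Atf3 at 364 ± 4.39 TPM. The list includes Gal, Npy and Cckbr, described above, and Cckbr was its lowest member. Vip and Nts, peptide genes that also respond to nerve injury, were at 12.5 ± 1.97 and 13.5 ± 1.18 TPM. There were no uninjured or freshly isolated ganglia among the samples, so no change can be read from these levels.

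Set beside 46 other peptide receptor genes, Galr2 and Npy2r ranked high. Only 4 of the 46 had a higher mean TPM than either: Gpr37l1 and Ednrb, known from glia, at 115 ± 7.15 and 77.5 ± 5.45 TPM, the natriuretic peptide receptor Npr2 at 44.6 ± 1.15 TPM, and the bradykinin receptor Bdkrb2 at 19.1 ± 0.459 TPM. Cckbr had 9 of the 46 above it and Npy1r 11, while Npy5r had 29. Of the 42 genes of that list that were tested, 16 were called above 1 TPM and 25 below. Over all genes tested, the shares were 56.0% above and 39.6% below.

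By the smallest root mean square difference of log2(TPM + 0.1) over the 5 libraries, the genes of that list nearest to Galr2 were Bdkrb2 (0.16) and the kappa opioid receptor Oprk1 (0.39; 13.7 ± 0.587 TPM). The same genes were nearest to Npy2r (0.22 and 0.31). Nearest to Npy1r were the mu opioid receptor Oprm1 (0.22; 3.14 ± 0.531 TPM) and Npr1 (0.29; 2.85 ± 0.476 TPM). Nearest to Cckbr were Gpr37 (0.23; 3.79 ± 0.425 TPM) and Oprm1 (0.54). These are likenesses of level in 1 kind of culture.

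**Figure D4:**
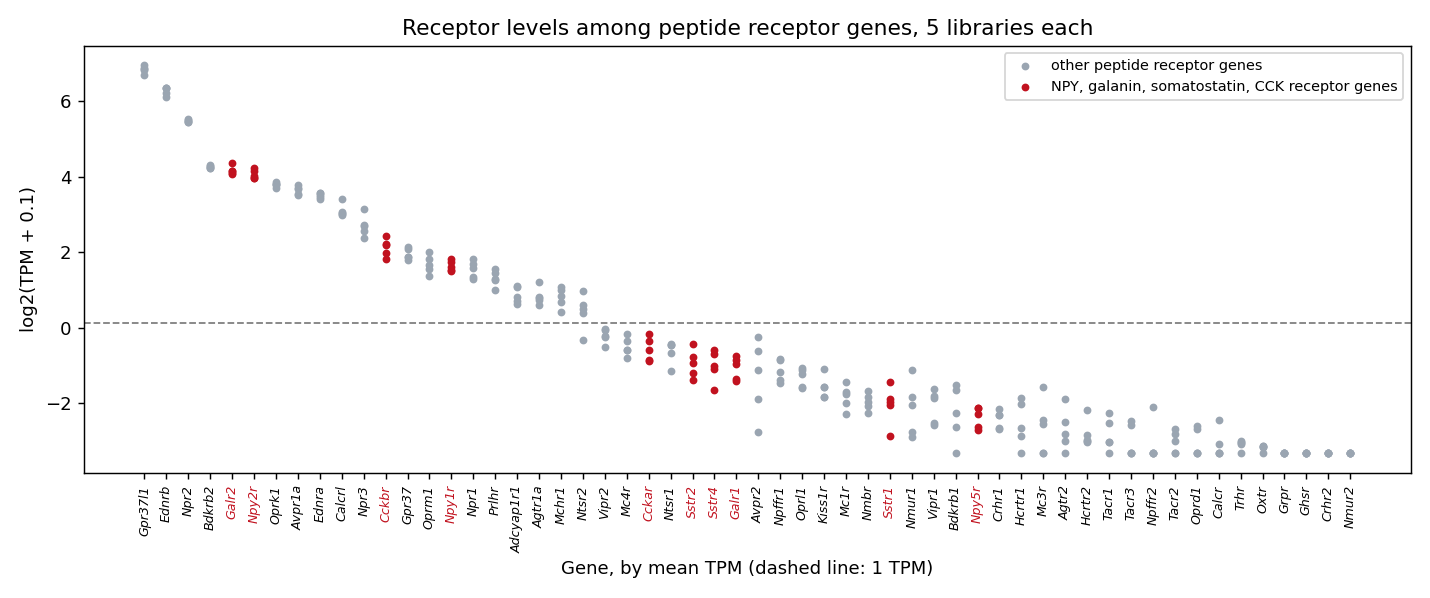
Level of the 10 receptor genes (red) and 46 other peptide receptor genes (grey) as log2(TPM + 0.1), ordered by mean TPM, with 5 points per gene and a dashed line at 1 TPM. Galr2 and Npy2r sit after 4 other genes at the high end, and the 6 undetected members lie among the low genes below the line.

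The promoter table held 9 of the 10 members, and Cckar had no entry. In the 250 bases before the start used for each gene, the share of G and C ran from 38.8% for Npy2r to 72.0% for Sstr4. Of the 9 members, 8 lay above the median of all promoters. Of the leading pair, Galr2 had 66.8%. The letters GGGCGG (a GC box), searched on both strands, occur in 3 of the 9 members, namely Galr1, Sstr2 and Cckbr, and in 30.5% of all promoters. TGACGTCA, the full cyclic AMP response element, occurs in Sstr2 alone and in 1.59% of all promoters. TATAAA was found in none of the 9 windows and in 12.9% of all promoters.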

How the data were processed

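Poly-A RNA from 5 libraries of 1 group was analysed. Per the submitters' processing notes, the authors used Salmon 1.5.1, Trim Galore 0.6.6 and cutadapt 2.8, and the build was mRatBN7.2. The annotation release, strand setting and order of steps were not given in the sources used here. In the deposited gene table the unit is TPM, and the deposited transcript files hold TPM and an estimated count of reads per transcript, per the file headers. Estimated counts were summed over the transcripts that could be named, and rounded only for Poisson intervals. No count model was fitted, since there is no contrast.

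Transcripts were joined to genes by RefSeq accession without its version, through the GRCr8 table (67330 of 98811 transcripts, 68.1%), and promoter windows carry GRCr8 positions. Levels were tested against 1 TPM with limma 3.58.1 in R 4.3.3 (intercept only, empirical Bayes, two-sided, Benjamini-Hochberg over 24485 genes, threshold 0.05, pseudocount 0.1). Within-family differences used an exact two-sided sign-flip test over libraries. Intervals are exact Poisson limits at 95%, and a floor is 3 reads over the 5 libraries; both reflect counting error alone, because PCR copies cannot be told from separate molecules here. Pairs of libraries differed by 5.16 to 9.92 times the chi-square expected from sampling alone per gene (genes with at least 20 reads in the pair), so none was treated as a duplicate. Analyses used Python 3.11.15. The level test was checked on simulated data, and the sign-flip test on set values with known answers.

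The text names all members, all ligand genes and other receptors of the families, up to 3 highest and 3 lowest genes of each other list, and the 2 nearest peptide receptor genes of each detected member; LOC108349007, Ankrd54 and Slc39a11 were added because they overlap a named gene. Npy6r and Avpr1b had no row in the table. The members and lists were chosen with earlier results of these data known. Alternatives covered the pseudocount, the filter on low genes, the detection threshold, transcript sums, length normalization and leaving out each library.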

Additional observations from a re-analysis of the deposited data

Results flagged for a closer look

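Among 138 named or listed genes whose libraries differed, 9 had 1 library set apart from the other 4 by more than Dixon's limit for 5 samples (the gap to the next library over the whole range). Chance alone flags about 1 in 20. The only member among them was Galr2, at 20.4 TPM in replicate 2, where the next library stood at 17.7 TPM. That flag rests on TPM. Scaled to library reads, with no division by length, Galr2 was at 20.8 in replicate 2, 19.6 in replicate 5 and 17.9 in replicate 4, the lowest. Dixon's limit was not applied on that scale. Gal, the ligand gene of Galr2, was low in replicate 1, at 307 TPM against 332 TPM in the next library. Galp stood at 0.309 TPM in replicate 1 and Npy4r at 0.140 TPM in replicate 2, each from at most 2 reads in that library. The kinase gene Grk3 was low in replicate 2, at 1.59 TPM. The myelin genes Pmp22 and Prx were low in replicate 1, at 970.3 and 56.95 TPM. The GDNF family receptor gene Gfra2 was low in replicate 4, at 7.68 TPM, and the fibroblast gene Lum was high there, at 16.7 TPM.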

How the results depend on the processing

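The number of members detected was 4 at thresholds of 0.5, 1 and 2 TPM, with transcript sums and without any 1 library, and the whole-table test called 4 members above 1 TPM under every pseudocount, filter, source and left-out library tried. It called 6 below under all of these except the requirement of a mean TPM of at least 0.1, which left Npy5r untested and gave 5. Over all genes, the count called below 1 TPM was 4185 with a mean TPM of at least 0.1 required and 18080 with no filter, against 9684, because the filters change how many low genes are tested. The count called above was between 13649 and 13676 with a library left out. Of the within-family differences, Sstr2 minus Sstr4 turned to -0.22 without replicate 2 and otherwise reached 0.24 at most with a library left out. A pseudocount of 1 gave 4.01 for Npy2r minus Npy5r, 1.88 for Npy1r minus Npy5r, 3.77 for Galr2 minus Galr1, 0.31 for Sstr2 minus Sstr1, 0.29 for Sstr4 minus Sstr1 and 1.74 for Cckbr minus Cckar, all in the same direction, and a pseudocount of 0.5 gave values between these and the reported ones. With all reads on the longest transcript, Galr2 minus Galr1 was 4.49 and Npy2r minus Npy5r 5.80. Leaving out libraries, Sstr2 minus Sstr1 ranged from 0.76 to 1.24. No paired analysis was possible because the 1 group leaves no samples to pair across groups; differences between genes were taken within libraries. Depth limits the 6 low members most, since the lowest of them rests on 15 reads.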

Other observations

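Genes listed for the processing and breakdown of peptides were present with the receptors, and not all of the processing genes encode enzymes. All 7 processing genes were called above 1 TPM by the whole-table limma test, as were 56.0% of all genes tested. Pcsk1n stood at 615 ± 41.7, the carboxypeptidase Cpe at 395 ± 7.89 and the prohormone convertase Pcsk1 at 141 ± 6.61 TPM (SD, n = 5). Of 14 peptide-degrading enzymes 13 were called above 1 TPM, led by the endothelin-converting enzyme Ece1 at 69.3 ± 1.95 TPM, Npepps at 59.8 ± 1.88 TPM and Prep at 57.1 ± 1.06 TPM. The exception was Dpp4, the peptidase known for trimming NPY to a form that no longer acts on Npy1r, which stood at 0.155 ± 0.0623 TPM and was called below. Fap, its close relative, was at 2.57 ± 0.502 TPM.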
